A study of Homo sapiens with 12 samples.

Results

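The integrated stress response is read here through 8 genes, ATF4, CEBPG, CEBPB, ATF5, ATF3, DDIT3, TRIB3 and NUPR1, in HuH-7 cells, a hepatocellular carcinoma line with the p53 mutation Y220C. The members were taken by name from the gene probes of an Agilent whole-genome array, and 12 of its 41000 gene probes, for 8 of 29123 gene names, carry one of these names. All 12 passed the filter on dim probes. The cells received 28 µM or 42 µM SLMP53-2, a small molecule studied as a reactivator of mutant p53, or the solvent DMSO alone. RNA was collected after 24 h, from 4 biological replicates of each group, and every group therefore shares the cell line and its mutation. For the higher dose the labels give both 42 µM, the name used here, and 48 µM. The comparison asks whether the factors of this response differ in RNA between treated and solvent cells.

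In the integrated stress response, kinases that sense unfolded protein, amino acid shortage, heme shortage or viral RNA phosphorylate the initiation factor eIF2. General translation then falls while the mRNA of ATF4, a basic leucine zipper factor, is translated more. ATF4 binds DNA with partners such as CEBPB and CEBPG and drives genes of amino acid supply together with further factors, of which DDIT3, also called CHOP, is linked to cell death, TRIB3 is a pseudokinase that restrains ATF4 and CHOP, and NUPR1 is a small stress-induced chromatin protein. Control of ATF4 itself is largely by translation, which RNA arrays do not see.

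ATF4, ATF3, CEBPB and TRIB3 have 2 probes each, and these did not always read alike. The upstream probe of each pair lies in coding sequence and is shown because the readings of the pairs are compared further on. Sequences are 5′ to 3′ as the array carries them.
ATF4 A_23_P120941: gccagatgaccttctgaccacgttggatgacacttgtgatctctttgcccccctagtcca
ATF3 A_24_P33895: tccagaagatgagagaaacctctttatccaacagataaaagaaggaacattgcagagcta
CEBPB A_23_P143242: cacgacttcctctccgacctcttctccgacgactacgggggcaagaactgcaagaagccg
TRIB3 A_24_P305541: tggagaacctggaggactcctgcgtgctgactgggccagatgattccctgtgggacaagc

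These 4 probes lie on the plus strand of hg19, the build of the scanner files. ATF4 A_23_P120941 is at chr22:39917875-39917934, and its second probe, A_23_P120933, is at chr22:39918577-39918636, over the end of the coding sequence. ATF3 A_24_P33895, at chr1:212792837-212792896, covers the last codons, and A_23_P34915 lies further 3′ at chr1:212793856-212793915. CEBPB A_23_P143242 is at chr20:48807913-48807972, while A_23_P411296, printed on 10 spots of each array, is at chr20:48808989-48809048. TRIB3 A_24_P305541 is at chr20:376856-376915 and A_23_P210690 at chr20:378107-378166. The other 4 genes have 1 probe each, ATF5 at chr19:50436754-50436813, CEBPG at chr19:33870693-33870752, NUPR1 on the minus strand at chr16:28548821-28548880, and DDIT3 on the minus strand at chr12:57911200-57911526, a span longer than the 60 bases of the probe, so that it crosses an intron.

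Promoters were searched for letters that ATF4 and its partners are known to bind. RefSeq windows of GRCh38.p14 were found for 7 of the 8 genes, 16 windows in all, and the 250 bases before each start were read on both strands. The composite C/EBP-ATF motif, TGATGNAA, was present in 2 of the 16 windows and in 3.14% of 35116 windows of all genes. CEBPG held it 42 bases before one start, and ATF3 held it 191 bases before its upstream start. The motif is in capitals in these windows.
CEBPG chr19:33373863-33374112, plus strand: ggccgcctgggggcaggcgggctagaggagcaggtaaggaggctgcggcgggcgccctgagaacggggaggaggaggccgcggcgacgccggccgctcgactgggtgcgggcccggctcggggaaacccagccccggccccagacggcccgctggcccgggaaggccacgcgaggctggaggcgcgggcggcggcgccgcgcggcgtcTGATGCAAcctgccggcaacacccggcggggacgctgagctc
ATF3 chr1:212565157-212565406, plus strand: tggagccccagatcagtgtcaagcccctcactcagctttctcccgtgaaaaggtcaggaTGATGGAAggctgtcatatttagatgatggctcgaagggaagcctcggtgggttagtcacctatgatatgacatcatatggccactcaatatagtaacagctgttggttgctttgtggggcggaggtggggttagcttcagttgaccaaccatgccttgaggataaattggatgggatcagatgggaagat

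The full cyclic AMP response element, TGACGTCA, was in 0 of the 16 windows and in 1.65% of all. The C/EBP palindrome, TTGCGCAA, was likewise in 0 of them, against 0.131% of all. A match is a description of letters, and no match says only that these letters are absent from 250 bases.

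All values that follow are log2 intensities after Edwards background correction and quantile normalization, listed in the order of replicates 1 to 4, and a difference of 1 is a doubling. Probes bind with different strength, so levels are not compared between probes. A gene was called when limma gave one of its probes an adjusted p under 0.05 and a log2 change of at least 0.6. The 12 arrays lie on 5 slides, and 28 µM replicate 4 stood apart. Over the 465 non-member probes called higher at 42 µM, that array lay a median 0.14 above the DMSO mean, against 0.76 to 0.91 on the other 28 µM arrays. Results at 28 µM are therefore given with and without replicate 4. Since replicate 4 was singled out by its low response, leaving it out favours larger changes and a smaller spread. Adjusted p and calls at 28 µM without replicate 4 are thus descriptions and lack their usual meaning. Replicate 4 is not the only uneven array of its group. The weight that limma fits to each array, lower for noisier ones, was lowest for 28 µM replicate 1, at 0.31, against 0.72 for replicate 4. Replicate 1 also had the largest share of spots well above background, 85.0%. All 13 hepatocyte markers, ALB and AFP among them, were well above background on every DMSO array, as were 6 of 10 markers of other liver and blood cells, and of the 7 of the latter tested 0 were called in any comparison, with changes at 42 µM from −0.29 to 0.36.

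At 42 µM, 6 of the 8 genes were upregulated, ATF4, ATF3, DDIT3, CEBPB, NUPR1 and TRIB3, and ATF5 was downregulated. Of all 24168 gene names tested, 1.74% were called higher and 1.59% lower. In a culture, a change in RNA per cell and a change in the mix of cell states cannot be told apart. CEBPG, the remaining member, had a positive change that missed the limit. Counting the brightest probe of each gene, the median log2 change of the members was 1.79, against −0.01 over all probes tested. On 10 of the 12 probes every 42 µM array lay above every DMSO array, as on 5.83% of all probes. One of the 10, ATF3 A_24_P33895, was not well above background on any DMSO array and separated by hundredths, which leaves 9 of 11. On 1 probe, that of ATF5, every one lay below, as on 6.49%.

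**Figure D1:**
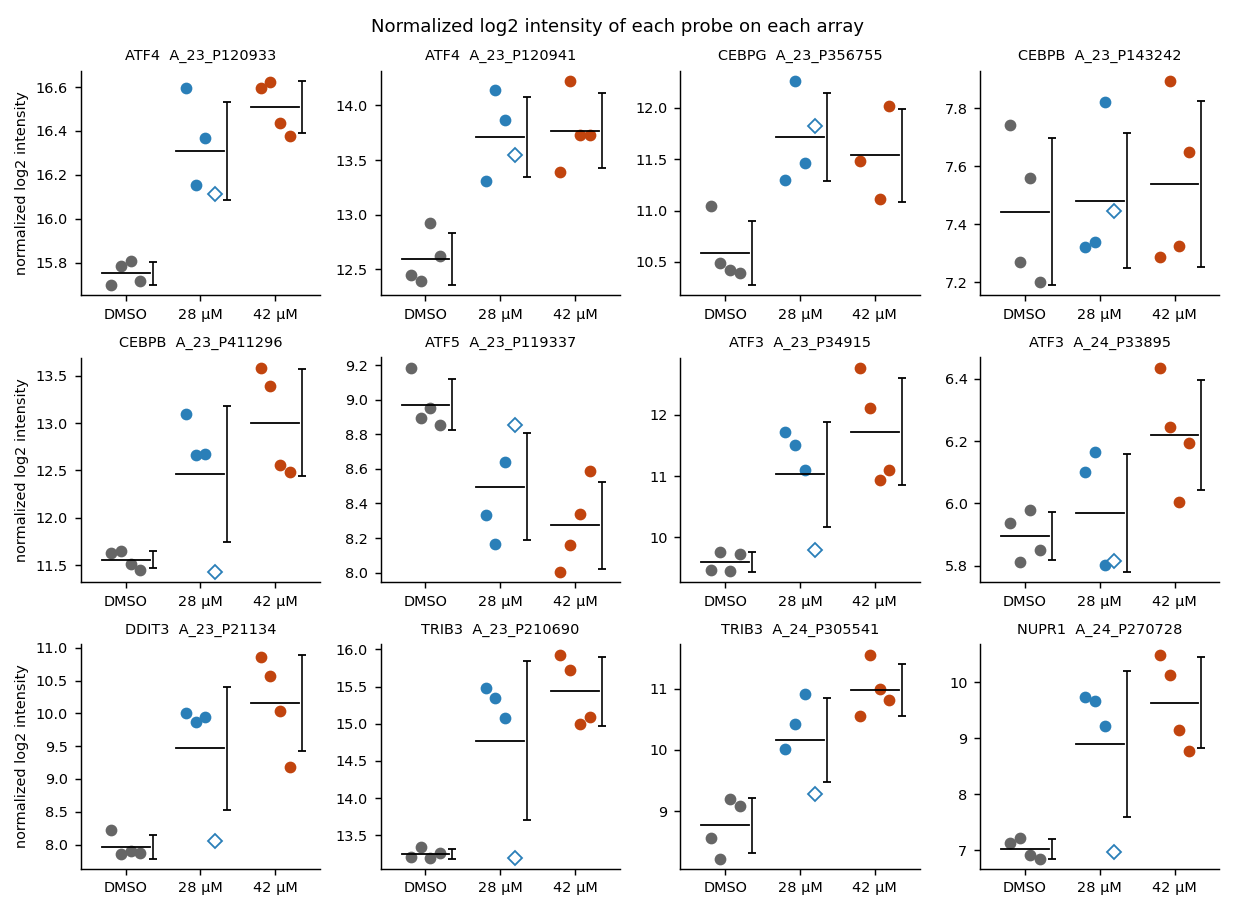
Normalized log2 intensity (vertical axis, a separate scale in each panel) of the 12 probes on each array by group, with the mean as a line and the SD as a bar. The open diamond is 28 µM replicate 4, which sits with the DMSO arrays for DDIT3, NUPR1, CEBPB A_23_P411296 and TRIB3 A_23_P210690. It lies above them for both ATF4 probes and CEBPG, and by hundredths for ATF3 A_23_P34915 and TRIB3 A_24_P305541.

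ATF4, the central activator, was measured by probes well above background on every array. A_23_P120941 read 12.44, 12.39, 12.92 and 12.62 on DMSO, 13.30, 14.14, 13.87 and 13.54 at 28 µM, and 13.39, 14.23, 13.73 and 13.73 at 42 µM. Every treated array was above every DMSO array, and the doses overlapped. From a DMSO mean of 12.59 ± 0.24 (SD, n = 4), it rose by 1.18 at 42 µM (SE 0.21), a 2.26-fold difference with an adjusted p of 0.0152 from limma. The brighter probe, A_23_P120933, read 15.70, 15.78, 15.81 and 15.72 on DMSO, 16.60, 16.16, 16.37 and 16.11 at 28 µM, and 16.60, 16.62, 16.44 and 16.38 at 42 µM. It separated the treated arrays from DMSO in the same way. Its rise at 42 µM was 0.76, with an SE of 0.12 and an adjusted p of 0.0125 from limma. At 28 µM the changes were 1.12 (SE 0.21) and 0.56 (SE 0.12), neither of them called with adjusted p of 0.141 and 0.175, and without replicate 4 they were 1.18 and 0.62 with adjusted p of 0.0180 and 0.0239 from limma, both called. Leaving out the array that stood apart thus changed the call of both ATF4 probes and little of their log2 change. The unadjusted p from limma rose from 0.000103 to 0.000196 for A_23_P120941 and fell from 0.000500 to 0.000328 for A_23_P120933. The lower adjusted p of A_23_P120941 therefore came from the adjustment over all probes.

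CEBPG, a short C/EBP protein that lacks an activation domain and pairs with ATF4, read 11.05, 10.49, 10.42 and 10.39 on DMSO and 11.30, 12.26, 11.47 and 11.82 at 28 µM. At 42 µM replicates 1, 3 and 4 read 11.48, 11.12 and 12.02, and replicate 2 was dropped because its spot carries an outlier mark. All measured treated arrays lay above all DMSO arrays, and DMSO replicate 1 came closest to them. The changes were 1.12 (SE 0.24, adjusted p = 0.175) at 28 µM and 0.95 (SE 0.26, adjusted p = 0.0765) at 42 µM in limma, and neither was called. Keeping spots with the mark, an alternative added after the data were seen, gave 1.23 at 42 µM with an adjusted p of 0.0431, and over 30 alternatives that p ran from 0.0210 to 0.220. As with ATF4, omitting 28 µM replicate 4 hardly moved the value, which became 1.09 (adjusted p = 0.0634 from limma). Its unadjusted p from limma rose from 0.000532 to 0.00186, so the lower adjusted p came from the adjustment over all probes.

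CEBPB, a C/EBP activator of acute phase and stress genes, was read differently by its probes. A_23_P411296 read 11.62, 11.65, 11.51 and 11.45 on DMSO, 13.09, 12.66, 12.67 and 11.43 at 28 µM, and 13.58, 13.39, 12.56 and 12.48 at 42 µM. The 42 µM arrays all exceeded DMSO, and at 28 µM replicate 4 was just under the lowest DMSO array. It rose by 1.44 at 42 µM (SE 0.32), or 2.72-fold, with an adjusted p of 0.0303 from limma. The upstream probe A_23_P143242 read 7.74, 7.27, 7.56 and 7.20 on DMSO, 7.32, 7.34, 7.82 and 7.44 at 28 µM, and 7.29, 7.89, 7.33 and 7.65 at 42 µM. The 3 groups overlapped throughout on that probe, although it was well above background on every array. Its change at 42 µM was 0.10 with a 95% interval of −0.28 to 0.47. The intervals of the probes do not overlap, since that of A_23_P411296 ran from 0.75 to 2.13.

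ATF5, a relative of ATF4 whose mRNA is also translated more when eIF2 is phosphorylated, was the member that went down. Its probe read 9.19, 8.90, 8.95 and 8.85 on DMSO, 8.33, 8.16, 8.64 and 8.86 at 28 µM, and 8.01, 8.16, 8.34 and 8.59 at 42 µM. Every 42 µM array was under every DMSO array, and 28 µM replicate 4 lay within the DMSO range. It fell by 0.70 at 42 µM (SE 0.17), a 1.62-fold difference with an adjusted p of 0.0399 from limma. Over 30 alternatives its adjusted p ran from 0.0180 to 0.139, and 13 of them lost the call, more than for any other called member, while none turned the sign. At 28 µM the change was −0.48 (adjusted p = 0.315), or −0.60 without replicate 4 (adjusted p = 0.0851 from limma), and neither was called.

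ATF3, a stress-induced factor that mostly represses, read 9.46, 9.76, 9.45 and 9.72 on DMSO with A_23_P34915, 11.72, 11.51, 11.09 and 9.79 at 28 µM, and 12.77, 12.11, 10.93 and 11.10 at 42 µM. Only 28 µM replicate 4 among the treated arrays came near DMSO, a margin of hundredths above its highest array. ATF3 rose by 2.13 at 42 µM (SE 0.42), or 4.37-fold (adjusted p = 0.0196 from limma). At 28 µM its change was 1.43 (SE 0.42, adjusted p = 0.237), and 1.84 without replicate 4 (adjusted p = 0.0193 from limma). The coding probe A_24_P33895 was dim. It was well above background on 0 of 4 DMSO, 2 of 4 28 µM and 3 of 4 42 µM arrays, with readings of 5.81 to 5.98, 5.80 to 6.17 and 6.00 to 6.44. Its mean at 42 µM was 1.21-fold above the detection level of the DMSO arrays. That ratio of means leaves out the spread between arrays, so it is not a lower limit. The measured difference of this probe, 0.32 (SE 0.13), was not called (adjusted p = 0.210 from limma).

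DDIT3, or CHOP, a C/EBP relative that couples prolonged stress to cell death, read 8.22, 7.85, 7.90 and 7.87 on DMSO, 10.01, 9.86, 9.94 and 8.06 at 28 µM, and 10.86, 10.57, 10.03 and 9.19 at 42 µM. Replicates 1 to 3 at 28 µM lay close to one another while replicate 4 fell inside the DMSO range. At 42 µM DDIT3 rose by 2.20 (SE 0.41), or 4.59-fold (adjusted p = 0.0166 from limma). The change at 28 µM was 1.50 (SE 0.41, adjusted p = 0.214), and 1.97 (SE 0.30) without replicate 4, with an adjusted p of 0.00568 from limma.

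TRIB3, the feedback pseudokinase, moved alike on both probes at 42 µM. A_23_P210690 read 13.21, 13.34, 13.20 and 13.27 on DMSO, 15.48, 15.34, 15.08 and 13.20 at 28 µM, and 15.93, 15.72, 15.00 and 15.09 at 42 µM. The DMSO arrays lay close together, and 28 µM replicate 4 sat at their lower edge. It rose by 2.18 at 42 µM (SE 0.40, adjusted p = 0.0160 from limma). The coding probe A_24_P305541 read 8.56, 8.22, 9.19 and 9.08 on DMSO, 10.02, 10.43, 10.92 and 9.28 at 28 µM, and 10.55, 11.56, 10.99 and 10.81 at 42 µM. Its solvent arrays were more spread, and all treated arrays lay above them, replicate 4 at 28 µM by the smallest margin. The rise at 42 µM, 4.64-fold, came to 2.22 on the log2 scale with an SE of 0.32 (adjusted p = 0.0112 from limma). At 28 µM the probes changed by 1.52 (SE 0.40) and 1.40 (SE 0.32), not called at adjusted p of 0.203 and 0.180, and by 2.04 and 1.69 without replicate 4, both called, with adjusted p of 0.00052 and 0.00957 from limma.

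NUPR1, the small chromatin protein, had the largest change of the members at either dose, with or without 28 µM replicate 4. Its probe read 7.13, 7.22, 6.91 and 6.85 on DMSO, 9.74, 9.67, 9.22 and 6.97 at 28 µM, and 10.50, 10.14, 9.15 and 8.77 at 42 µM. The 42 µM arrays were all above DMSO and differed widely among themselves, while 28 µM replicate 4 lay inside the DMSO range. NUPR1 rose by 2.61 at 42 µM (SE 0.53), or 6.11-fold (adjusted p = 0.0209 from limma). At 28 µM the change was 1.87 (SE 0.53, adjusted p = 0.222), and 2.52 (SE 0.34, adjusted p = 0.003 from limma) without replicate 4.

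With all arrays limma called 0 members at 28 µM, where the smallest adjusted p was 0.141, as it called 0% of all genes. At an unadjusted p under 0.05 and the same fold limit, 7 of the 8 were higher and 0 lower, against 1.66% and 1.34% of all genes. Without 28 µM replicate 4, 6 members were called higher, beside 1.59% of all genes, and 0 lower, beside 1.1%. These are the 6 genes called higher at 42 µM. The match is a description only, since replicate 4 was singled out by its low response on probes called higher at 42 µM. Both comparisons also share the same DMSO arrays. The median change over the brightest probes was 1.28 with replicate 4 and 1.54 without it. All arrays included, 5 of the 12 probes had no overlap with DMSO in the upward direction, as had 2.69% of all probes, and 0 in the downward, as had 2.68%. Leaving out that array gave 9 probes above, against 7.01%, and 1 below, against 7.44%.

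The members differed in how far the array that stood apart lay from solvent. For ATF4 its readings lay 0.62 and 0.31 above DMSO replicate 3, the solvent array of the same slide, and for CEBPG it lay 1.41 above. DDIT3, NUPR1 and TRIB3 A_23_P210690 differed from that solvent array by 0.16, 0.06 and −0.00 there, and CEBPB A_23_P411296 by −0.08. ATF3 A_23_P34915 lay 0.33 above, more than one ATF4 probe, TRIB3 A_24_P305541 0.09 above and ATF5 at −0.10, so the members do not fall into 2 clean sets. On the same slide 42 µM replicate 2 exceeded DMSO replicate 3 by 2.67 for DDIT3, 3.23 for NUPR1 and 2.52 for TRIB3 A_23_P210690. What sets 28 µM replicate 4 apart was not tested, and the pattern rests on 1 array.

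The 42 µM and DMSO arrays can be compared within 3 slides. Since the groups did not overlap on any of the 9 called probes, the sign of each difference was fixed beforehand, and the sizes are given as a description. They were 1.17 to 3.05 for ATF3 A_23_P34915, 2.18 to 2.98 for DDIT3, 1.93 to 3.65 for NUPR1, 1.66 to 2.66 for TRIB3 A_23_P210690 and 0.91 to 2.13 for CEBPB A_23_P411296. ATF4 A_23_P120941 differed by 0.77 to 1.34 and ATF5 by −0.85 to −0.56. With the slide as a block in limma the changes stayed close in size, 2.39 for DDIT3, 2.69 for NUPR1 and −0.65 for ATF5. None of the 8 members then passed the adjusted limit, the smallest adjusted p being 0.0558 for TRIB3 A_24_P305541 and ATF4 A_23_P120933, whose adjusted p over all alternatives ran from 0.000641 to 0.0558 and from 0.00222 to 0.154. Of all genes 0% were called higher and 0.00414% lower in that fit. At an unadjusted p under 0.05 and the fold limit, 7 members were higher and 1 lower, beside 3.48% and 2.67% of all genes. With the slide as a random block instead, all 8 members were called, 7 higher and 1 lower, beside 2.19% and 1.95% of all genes.

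The number of members called at 42 µM also depended on single arrays. It was 7 with all of them and 0 without DMSO replicate 2 or without 42 µM replicate 2, where the smallest adjusted p from limma was 0.0506 and 0.0523 and 0% of all genes were called. Without DMSO replicates 1, 3 or 4 it was 3, 3 and 2, all higher, beside 0.497%, 0.91% and 0.588% of all genes called higher. Without 42 µM replicate 1 it was 4, beside 1.02%. The share of all genes called thus fell along with the members in these fits. ATF4 and TRIB3 remained called in all of these but the first pair. At an unadjusted p under 0.05 and the fold limit, 7 members were higher and 1 lower with all arrays and without any one of the 12, beside 3.42% and 2.61% of all genes with all arrays. Without 28 µM replicate 4, the fit called the same number at 42 µM, 6 higher and 1 lower, beside 2.41% and 2.08% of all genes.

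Between the doses limma called 0 members and 0% of all genes. At an unadjusted p under 0.05 and the fold limit 1 member was higher at 42 µM, TRIB3 through A_24_P305541, by 0.82 with a 95% interval of 0.12 to 1.51, beside 0.157% of all genes, and 0 were lower, beside 0.223%. The intervals of the other changes were wide, from −0.40 to 1.87 for NUPR1, −0.20 to 1.59 for DDIT3 and −0.39 to 0.50 for ATF4 A_23_P120941. Without 28 µM replicate 4 the difference between doses was 0.09 for NUPR1, 0.22 for DDIT3 and −0.14 for CEBPG, with 95% intervals of −0.64 to 0.83, −0.43 to 0.88 and −0.77 to 0.50. The doses overlapped on all 12 probes, where 0.63% of all probes had 42 µM wholly above and 0.852% wholly below, and also without that array, where 1.35% and 1.23% had.

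Genes around the factors were read from lists, whose counts stand beside the 1.74% and 1.59% of all genes called higher and lower at 42 µM and a median change of −0.01 over all probes. Upstream, the eIF2 kinases gave no call at 42 µM, with changes of 0.32 for EIF2AK1 (HRI), 0.39 for EIF2AK2 (PKR), 0.27 for EIF2AK3 (PERK) and −0.30 for EIF2AK4 (GCN2). PPP1R15A, or GADD34, the stress-induced subunit that directs a phosphatase to eIF2, rose by 0.99 (SE 0.24, adjusted p = 0.0423 from limma) and was the 1 gene called of 16 in the eIF2 list. At 28 µM it changed by 0.66, or 0.56 without replicate 4, and was not called.

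Among 22 other ATF/CREB and C/EBP genes 1 was called at 42 µM, CREB5, which rose by 0.91 (SE 0.15, adjusted p = 0.0139 from limma). JDP2, a repressor that pairs with JUN and ATF proteins, changed by 1.58 (adjusted p = 0.0599), short of a call, and at 28 µM without replicate 4 it rose by 1.59 (adjusted p = 0.00479). CEBPA and CEBPD, the liver C/EBP factor and an acute phase one, changed by 0.17 and −0.31 and were not called. ATF6 and XBP1, the factors of the other unfolded protein branches, changed by 0.20 and 0.04, also without a call, and XBP1 is controlled by splicing, which these probes do not resolve. Within the AP-1 and NRF genes 3 of 12 were called, NFE2L1 (0.93), MAFG (0.83) and JUN (0.65), and JUND had 0.78 with an adjusted p of 0.102. The tribbles relatives TRIB1 and TRIB2 had 0.37 and −0.26, neither called.

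Downstream, 30 of 38 ATF4 and CHOP target genes were upregulated at 42 µM and 0 downregulated, with a median change of 1.20. The 4 of largest change were STC2, a secreted stanniocalcin, which rose by 3.05, CHAC1, which degrades glutathione, by 3.01, ASNS, asparagine synthetase, by 2.93, and PCK2, mitochondrial phosphoenolpyruvate carboxykinase, by 2.81. Their adjusted p from limma lay between 0.0112 and 0.0164. In PSPH, SHMT2, SLC7A11 and BBC3, named after their values were seen, the call came from a probe other than the brightest. At 28 µM 0 of the 38 were called with all arrays and 25 without replicate 4, when ASNS, PCK2, STC2 and CHAC1 changed by 2.99, 2.82, 2.76 and 2.68. The ATF6 and XBP1 list had 2 of 18 called, HERPUD1 (1.13) and DNAJC10 (0.97), with a median of 0.07. At 28 µM without replicate 4 these and EDEM1, through a probe at 1.02, were called. HSPA5, the chaperone BiP that marks that branch, had −0.28 (SE 0.13, adjusted p = 0.321 from limma). The hepatocyte markers had 1 of 13 called lower, FGA through 1 of its 3 probes, and a median of 0.10. All list calls at 42 µM were lost with the slide as a fixed block, without DMSO replicate 2 or without 42 µM replicate 2, when 0% of all genes were called higher. Without DMSO replicates 1, 3 and 4, 15, 19 and 18 of the 38 targets were called, beside 0.497%, 0.91% and 0.588% of all genes called higher, and with the slide as a random block 32 were, beside 2.19%.

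**Figure D2:**
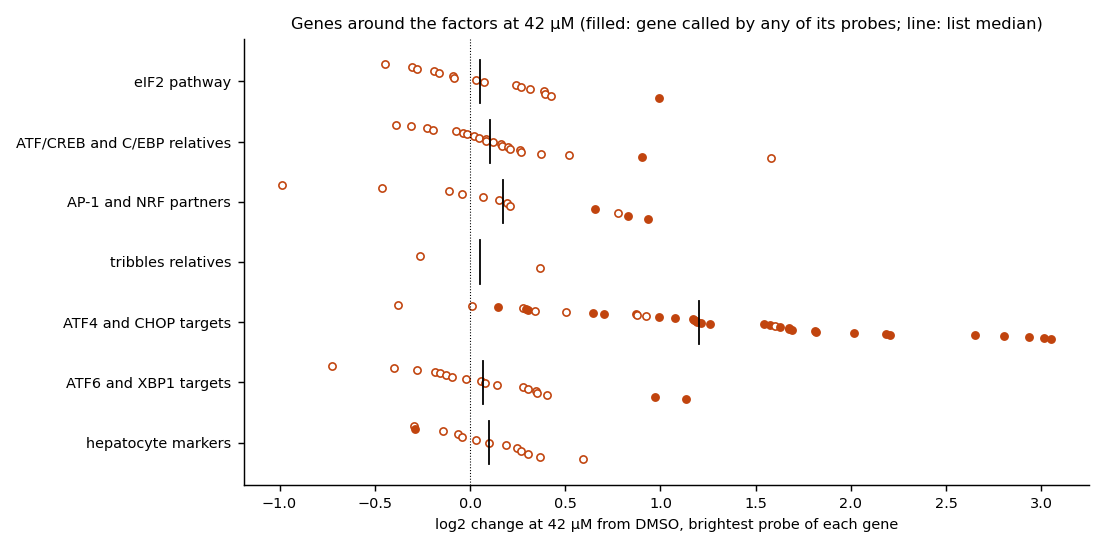
Log2 change at 42 µM from DMSO (horizontal axis) of the brightest probe of each gene in 7 lists, filled where any probe of the gene was called, with the list median as a line. ATF4 and CHOP targets lie mostly above 0.5, while eIF2 pathway genes and ATF6 and XBP1 targets centre near 0.

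For each member the non-member probe with the nearest pattern was found by the root-mean-square difference over the arrays, each profile taken from its own DMSO mean. RCN1 was nearest to DDIT3, at 0.25, and to ATF3, at 0.27. For TRIB3 it was CSTA at 0.11, for CEBPB it was BBC3 A_23_P382775 at 0.12, and for NUPR1 it was DDIT4 at 0.24. The other BBC3 probes, A_23_P90189 and A_24_P305312, each changed by 0.15 at 42 µM and were not called. ATF4 had EPRS at 0.10, and CEBPG, over the 11 arrays that measured it, had SLC7A1 at 0.28. The nearest to ATF5, at 0.10, was A_32_P168431, named on the array by a transcript only. These differences are not scaled to how far a member moved, so they do not rank the matches between members. The root-mean-square distance of a member from its own DMSO mean was 0.53 for ATF5, 0.56 for ATF4, 1.64 for TRIB3 and 1.65 for DDIT3. CSTA and RCN1 each stand among the nearest 3 of ATF3, DDIT3 and TRIB3. These are descriptions over 12 arrays that share slides and one normalization.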

How the data were processed

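The authors hybridized Cy3-labelled RNA to Agilent 4x44K arrays and deposited the Feature Extraction 10.7.3.1 output (version per the labels) with mean and background intensity of each spot, together with log2 values of each probe after the authors' own Edwards correction and quantile normalization. Processing here repeated those steps from the intensities in limma 3.58.1 under R 4.3.3. Spots were left out if they were controls or carried an outlier mark, and those of one probe were averaged. Kept were 33467 of 41000 probes, well above background on at least 2 arrays of 1 condition. Across arrays 65.0% to 85.0% of gene spots were well above background and 0 were saturated, and the number of arrays limits the precision.

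limma was fitted to all 12 arrays. Its two-sided p-values set a difference against the spread between arrays of a group, in which cultures and slides are mixed. Adjustment was by Benjamini-Hochberg over all probes kept. The procedure was tested on simulated data with independent noise on each array. Those data held no slide effect and no array that stood apart, so the test covers neither. Members and lists were chosen with earlier results of these data known, so their counts are descriptions. Named are all members, up to 4 called genes of largest change per list and comparison, fixed control genes, and each member's nearest probe. List genes are described by their brightest probe and called by any probe. Alternatives were other background corrections, scalings, filters, blocks, weights, limits, and leaving out each array. Gene names are those of the array design, and promoters came from RefSeq. Plots used Python 3.11.15, pandas 2.3.3 and matplotlib 3.10.9.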

Additional observations from a re-analysis of the deposited data

Results flagged for a closer look

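Of 35 sets of 4 arrays examined, one for each probe and group, 3 held an array far from the other 3 for the spread of its group. Chance alone marks about 1 in 20 such sets. DDIT3 read 8.225 on DMSO replicate 1, above the other DMSO arrays, and 8.058 on 28 µM replicate 4, below the other 28 µM arrays. CEBPG read 11.05 on DMSO replicate 1, above the other DMSO arrays. What lies behind these readings was not tested.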

How the results depend on the processing

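The number of members called at 42 µM was 7, and it was 0 with the slide as a fixed block and 8 with the slide as a random block. Under the other alternatives that kept all arrays it was 5 to 8. Those alternatives called 0.77% to 2.77% of all genes higher and 0.592% to 2.23% lower. Leaving out 1 array at a time gave 0 to 7 at 42 µM, 0 to 6 at 28 µM, where 6 came without 28 µM replicate 4, and 0 to 0 between the doses. No alternative turned the sign of a probe called at 42 µM, and 5 of 30 called CEBPG. The uncalled CEBPB probe A_23_P143242 ran from −0.02 to 0.22 at 42 µM. The processed signal left 5 members called, without ATF5 and CEBPB, beside 0.997% of all genes higher and 0.823% lower after quantile normalization. Scaled to the 75th percentile instead, it gave shares of 1.05% and 1.33%. Correlations between same-numbered arrays of different groups were mixed, with 7 of 12 pairs over 0.1 and a range of −0.46 to 0.62. Of the arrays, 5 matched best with one of their own number. The number was not taken as a pairing in the main fit, and these values cannot decide whether there was one. With the replicate number as a block (replicate block) 8 members were called at 42 µM, 0 at 28 µM and 0 between the doses. At 42 µM that fit called 2.77% of all genes higher and 2.23% lower. A block for the scan date was not run because all arrays share 1 date. Leaving out arrays or adding a block leaves fewer degrees of freedom. Probes near background, here ATF3 A_24_P33895, limit what can be read.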
